A study of Schizosaccharomyces pombe with 9 samples.

Results

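Deletion of rsm1 was compared with wild type in fission yeast, Schizosaccharomyces pombe, by sequencing of polyadenylated RNA. The comparison takes 6 of the 9 libraries of the study, 3 labelled as the rsm1 deletion (the rsm1-labelled libraries from here on) and 3 of wild type (WT), and covers all 6988 annotated features in the count table. The WT strain is Sp1, and the deletion strain ASY240 has rsm1 replaced by the drug-resistance marker natMX. The other 3 libraries come from strain IAP105, which carries the allele nup211-1435* (written nup211-1435 from here on) and a wild-type asp1 gene marked with kanMX. They serve to show which changes were weak or absent in another mutant of the nuclear basket. All strains are of mating type h- and were grown vegetatively to log phase in the rich medium YES at 30 °C. Each group is 1 strain with 3 biological replicates per the labels, so the p-values describe the spread among replicates of a strain. The natMX marker is present in the deletion strain and absent from WT, so an effect of the marker and an effect of losing rsm1 cannot be told apart. Likewise, only the nup211-1435 strain carries the kanMX-marked asp1 gene. Effects of that marked gene and of the nup211 allele cannot be told apart in any comparison with this strain. The level of asp1 differed from WT by 0.60 (log2) in nup211-1435 and by 0.19 in the rsm1-labelled libraries.

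The nuclear basket is a fibrous structure on the inner face of the nuclear pore, where messenger RNAs gather before export. Rsm1 is annotated as a zinc finger RNA export factor and Nup211 as a nucleoporin, related to the large basket proteins Mlp and TPR of other organisms. The study asked how both influence the processing of RNA 3′ ends and the termination of transcription. In fission yeast, the transport of iron, copper and sugars, the stress response and sexual differentiation are each governed largely at the level of transcript abundance, which makes them visible in such data.

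Libraries held between 20.98 and 28.1 M counts. A floor of detection of 3 counts came to 0.107 to 0.143 CPM, the unit of counts scaled to a common library total. Such floors cover counting error only. Levels below are CPM after TMM scaling (trimmed mean of M values), fold changes are log2 values, and SE is the standard error of a log2 fold change. Adjusted p-values are from edgeR's quasi-likelihood test with Benjamini-Hochberg adjustment over 6227 tested features, and a feature is called at an adjusted p under 0.05. A changed level in a culture does not show whether fewer cells express a gene or each cell holds less of its RNA, since these cannot be told apart in bulk RNA. Markers of h- cells summed to 112 to 137 CPM in WT and 101 to 109 CPM in the rsm1-labelled libraries. Markers of h+ cells, carried mostly by the protease gene sxa1, summed to 624 to 666 and 666 to 687 CPM.

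The counts of rsm1 itself did not fall as the label of a whole-gene deletion would have them do. WT held 879, 912 and 953 reads, the rsm1-labelled libraries 832, 845 and 668, and nup211-1435 1135, 1120 and 1231. The level against WT was -0.21 on the log2 scale (SE 0.05, adjusted p = 0.00113), and scaling by total counts gave -0.06 (adjusted p = 0.251), which ends the call. Only 891 of 2575 nt of annotated exon are coding, and features on the opposite strand overlap 97.5% of the exon, and the source of the counts was not tested. The strain is therefore named by its label throughout. The gene nup211 stood at 168, 189 and 183 CPM in WT and rose to 259.7, 258 and 229.7 CPM in the rsm1-labelled libraries (log2 0.47, SE 0.05, adjusted p = 3.36e-06). Features on the opposite strand overlap 87.4% of the nup211 exon as well.

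Most features moved a little and few moved far. Of 6227 tested features 70.7% were called against WT, 2284 up (36.7%) and 2121 down (34.1%). At least 2-fold, 295 rose (4.74%) and 174 fell (2.79%). The shares of 36.7% and 34.1% are those to set beside the counts of gene lists below. The nup211-1435 libraries differed from the same WT libraries at 64.9% of features, with 32.9% up and 32% down. Both comparisons share the WT libraries, so each comparison's values are given side by side, and differences between the mutants rest on their direct comparison, in which 50.2% of features were called, 25.7% higher and 24.5% lower in the rsm1-labelled libraries. The called share was 74.9% of 4995 protein-coding genes and 54% of 1127 long noncoding RNAs. The falls included nearly all cytosolic ribosomal protein genes, whose share of all counts was 21.1 ± 0.421% in WT and 17.4 ± 0.227% in the rsm1-labelled libraries (SD, n = 3). TMM scaling is set so that most features do not shift. With scaling by total counts the median change of all features moved by 0.14 against WT in these libraries and by 0.13 in nup211-1435, and the share of calls that were rises went from 51.9% to 69.2%. Falls of small size below are relative to this choice.

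**Figure D1:**
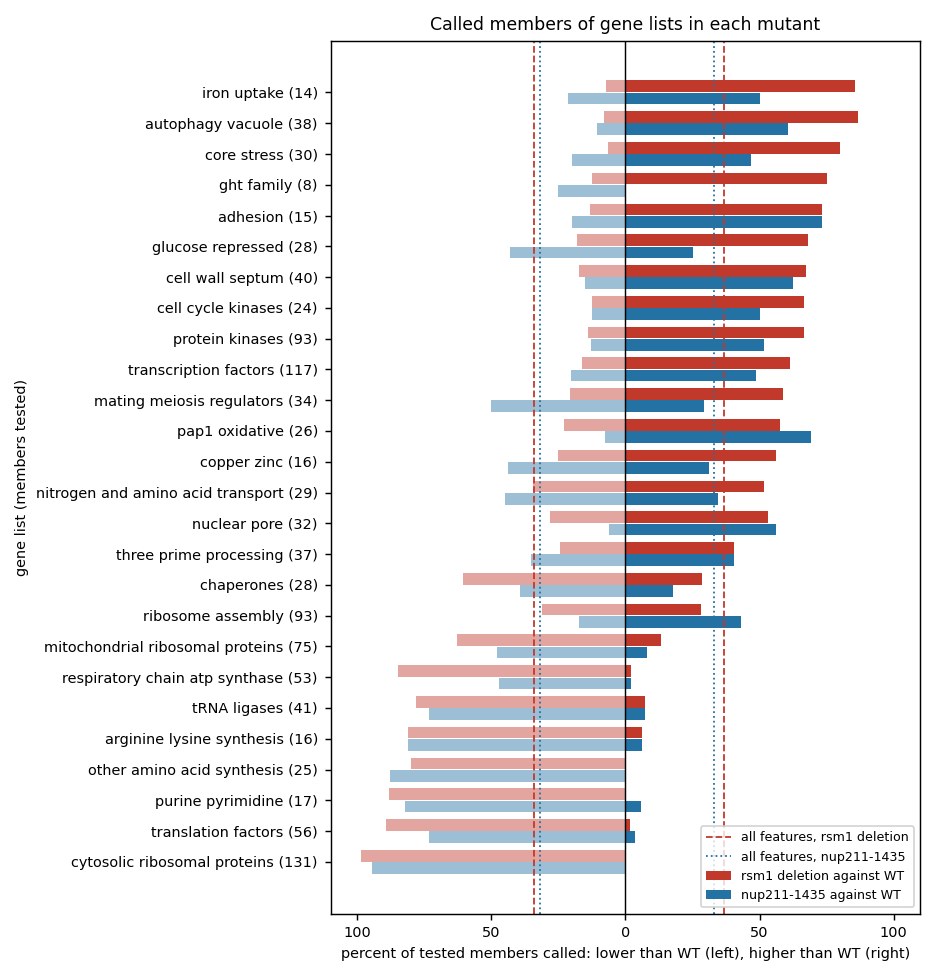
Percent of the tested members of 26 gene lists called higher (right) or lower (left) than WT, for the rsm1-labelled libraries (red) and nup211-1435 (blue), with the shares over all tested features as dashed and dotted lines. The iron uptake, hexose transporter, core stress, glucose and mating lists have larger red than blue bars on the right, and the respiratory chain list has a larger red than blue bar on the left.

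A set of 36 features changed at least 2-fold in the rsm1-labelled libraries and by less than 0.5 (log2) in nup211-1435, and is called the weak set below. They were selected from the 469 features called with at least a 2-fold change. Of these, 250 had at least 10 CPM in either group, 173 of them were also called in the same direction against nup211-1435, and 36 of those lay under the bound. Of the 36, 30 rose (0.482% of tested features) and 6 fell (0.0964%), and 29 were protein-coding. These values chose the members, so they are given as a description with no test. In all 30 risen members every rsm1-labelled library lay above every WT and nup211-1435 library, and in all 6 fallen members below them, as the selection requires large differences. Weak did not mean unchanged, because 25 of the 36 were called in nup211-1435 against WT, 13 of them higher and 12 lower. The member nearest the bound was the pseudogene SPCC1450.01c, at 0.49 in nup211-1435 beside 1.08. Just outside lay SPBC25B2.08, at 0.50 beside 1.12.

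**Figure D2:**
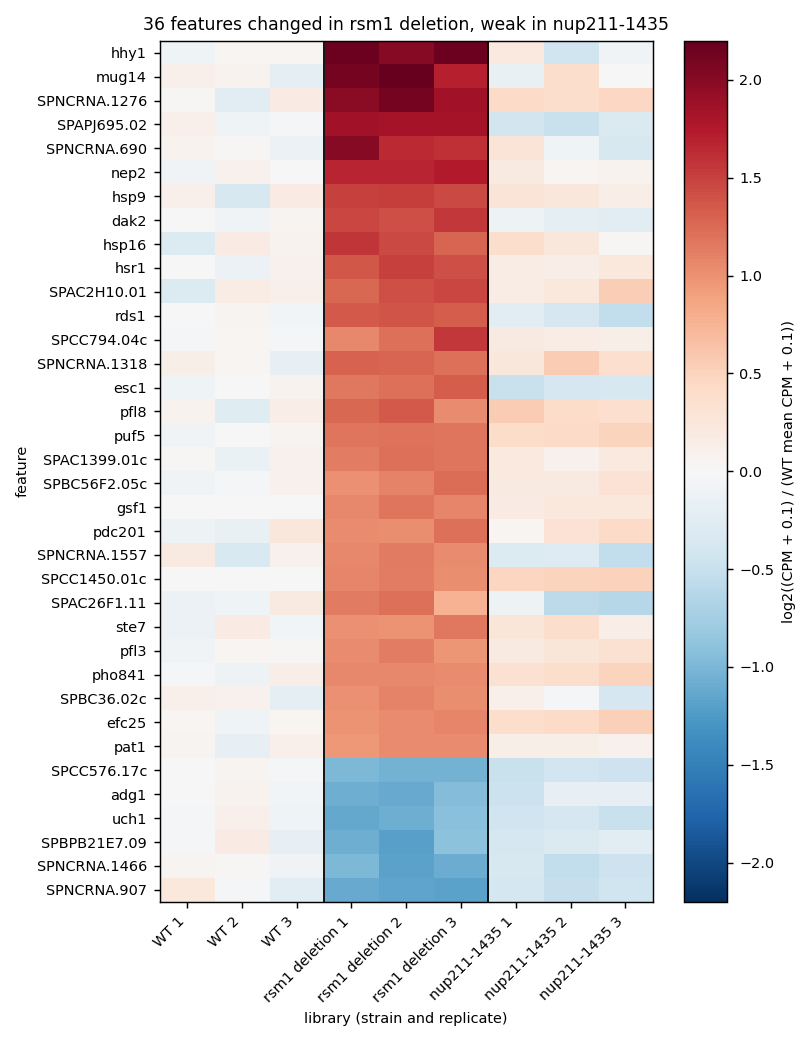
Level of each of the 36 features (rows) in each of the 9 libraries (columns) as log2 of CPM + 0.1 over the WT mean + 0.1. The 3 rsm1-labelled libraries are the coloured block in the middle, while the nup211-1435 columns stay within or near the WT shade.

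Stress genes were among the risen members. The gene hsp9, encoding a small heat shock protein, stood at 234, 170.2 and 244 CPM in WT, 612, 619.6 and 592 in the rsm1-labelled libraries and 264, 258 and 239.5 in nup211-1435. For hsp16, a small heat shock chaperone, the values were 78.2, 108 and 101, then 286, 264 and 232, then 125, 114 and 97.7 CPM. The WT and nup211-1435 ranges overlap for both genes, and the rsm1-labelled libraries stand clear of them (log2 1.49 ± 0.13 and 1.44 ± 0.15, SE). The stress-responsive gene rds1 was at 123, 129 and 119 CPM in WT and 316, 325 and 314 in the rsm1-labelled libraries, while nup211-1435 lay below WT at 104, 95.9 and 85.4 CPM. Features on the opposite strand overlap 88.8% of rds1. The transcription factor gene hsr1 went from 93.1, 84.5 and 98.8 to 237, 261 and 247 CPM, with nup211-1435 just above WT at 103, 102 and 109.

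Genes of carbon metabolism and protein modification were also in the set. The dihydroxyacetone kinase gene dak2 had 67.7, 63.8 and 69.8 CPM in WT, 186, 180.2 and 197 in the rsm1-labelled libraries and 62.1, 57.7 and 56.9 in nup211-1435, where it was lower than in WT (log2 -0.19, SE 0.05). The gene nep2, for a protease that removes the ubiquitin-like modifier NEDD8, had 10.4, 11.6 and 10.8, then 35.3, 35.1 and 36.8, then 12.5, 11.3 and 11.5 CPM in the same order. Its WT and nup211-1435 values overlap, and its level in the rsm1-labelled libraries was over 3 times as high. The pyruvate decarboxylase gene pdc201 rose from 6.2, 6.0 and 8.04 to 13.9, 13.8 and 15.7 CPM, with 6.96, 8.48 and 9.12 in nup211-1435.

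The largest rises of the set were those of hhy1 and mug14. The gene hhy1, annotated as a hydrolase, went from 2.41, 2.66 and 2.67 to 11.8, 10.7 and 11.8 CPM (log2 2.14), with 3.02, 1.87 and 2.44 in nup211-1435, and is overlapped along its whole length by a feature on the opposite strand. The gene mug14, an adducin that takes part in the organisation of the actin cytoskeleton, went from 3.55, 3.46 and 2.82 to 14.4, 15.9 and 10.9 CPM (log2 2.08), with 2.9, 4.32 and 3.25 in nup211-1435. The uncharacterised gene SPAPJ695.02 went from 7.09, 6.08 and 6.4 to 23.9, 23.6 and 23.5 CPM and was lower than WT in nup211-1435, at 4.89, 4.59 and 5.2.

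Regulators of sexual differentiation and surface proteins were represented as well. The gene pat1, for the kinase that keeps cells from entering meiosis, had 22.7, 19.1 and 23.5 CPM in WT, 42.3, 44.7 and 45.1 in the rsm1-labelled libraries and 23.9, 23.9 and 23.3 in nup211-1435. The transcription factor gene esc1, whose product promotes sexual differentiation, had 45, 48.4 and 50.2, then 107, 112 and 121, then 34, 37 and 37.5 CPM, so that nup211-1435 lay below WT. The gene ste7, an arrestin-family adaptor of the mating response, had 10.3, 12.9 and 10.9, then 23, 22.7 and 25.5, then 13.8, 14.9 and 12.5 CPM. Both other transcription factor genes of the set, SPAC2H10.01 and SPBC56F2.05c, changed by 1.39 and 1.11 (log2) beside 0.32 and 0.24 in nup211-1435. The cell-surface glycoprotein genes pfl3 and pfl8 and the flocculation regulator gene gsf1 changed by 1.05, 1.23 and 1.10, beside 0.27, 0.44 and 0.22.

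The 6 fallen members changed by little more than 2-fold. Among the 4 that are protein-coding, adg1, of the cell wall and septum list, went from 198, 209.9 and 191 to 95, 92 and 103 CPM, with 143, 177 and 175 in nup211-1435. The ubiquitin hydrolase gene uch1 went from 29.4, 32.4 and 27.9 to 13.6, 14.1 and 15.7 CPM, the L-asparaginase gene SPBPB21E7.09 from 28.3, 33.1 and 25.7 to 13.8, 12.7 and 15.5, and the vitamin B6 transporter gene SPCC576.17c from 15.8, 16.7 and 15.5 to 7.98, 7.75 and 7.75. In all 4 the nup211-1435 level lay between the other groups, with log2 values from -0.46 to -0.27. Of the noncoding members, SPNCRNA.1276 (1.99), SPNCRNA.690 (1.80), SPNCRNA.1318 (1.29) and SPNCRNA.1557 (1.09) rose and SPNCRNA.907 (-1.16) and SPNCRNA.1466 (-1.09) fell. Opposite-strand features overlap more than 50% of 9 of the 36 members and none of 23, and for the 9 the counts cannot be assigned with certainty. All 36 had the same direction and at least a 2-fold change in the authors' deposited table. That table compares the same strains, and the selection required such a change, so this is no independent support.

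Several nutrient transporter genes went up in the rsm1-labelled libraries and down in nup211-1435. In all, 17 features (0.273% of those tested) were called in opposite directions with at least 1.5-fold change in each mutant, and these calls chose them. The count was 9 without WT replicate 3 and 10 with total-count scaling. The high-affinity hexose transporter gene ght5 stood at 174, 337 and 215 CPM in WT, 606, 569.6 and 639.6 in the rsm1-labelled libraries and 82.5, 68.9 and 65.5 in nup211-1435. The groups do not overlap, although WT replicate 2 was well above the other WT libraries, and the mutants differed by 3.07 (log2, SE 0.26). The oligopeptide transporter gene isp4 had 58.8, 58.8 and 57.3 CPM in WT, then 114, 106 and 128 in the rsm1-labelled libraries and 25.2, 24.5 and 26.1 in nup211-1435, and the peptide transporter gene ptr2 had 77.2, 82.5 and 96, then 134, 138 and 139, then 22, 24.9 and 22.7. Replicates of both were close together, and the mutants differed by 2.19 (SE 0.06) and 2.56 (SE 0.08).

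The high-affinity copper transporter of fission yeast is a complex of Ctr4 and Ctr5, and both genes followed this pattern. The gene ctr4 had 63.6, 84.7 and 139 CPM in WT, 287, 283 and 306 in the rsm1-labelled libraries and 54.6, 29.3 and 56.1 in nup211-1435. The gene ctr5 had 88.8, 108 and 140.5, then 239.9, 228 and 241, then 57.9, 45.1 and 62.3 CPM. WT replicate 3 was the highest WT library for both. The fall of ctr4 in nup211-1435 (log2 -1.04, SE 0.36) lost its call in 9 of 15 other settings, among them without WT replicate 2 or 3 or any 1 mutant library, whereas the difference between the mutants held in all 15 and ranged from 2.40 to 2.80. For ctr5 the difference was 2.1 (SE 0.19), and its fall in nup211-1435 kept its call in all 14 settings that tested it. The uncharacterised gene SPCC1235.18 had 42, 79 and 49 reads in WT, 165, 135 and 133 in the rsm1-labelled libraries and 25, 15 and 25 in nup211-1435, and its mutants differed by 2.83 (SE 0.23). Noncoding members were led by SPNCRNA.716, at 36.4, 43.1 and 42.2, then 99.7, 99.8 and 95.8, then 24.1, 19.4 and 21.8 CPM, and SPNCRNA.322, at 16.6, 15.6 and 16.2, then 41.1, 41.9 and 38.2, then 10.4, 9.22 and 8.62.

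**Figure D3:**
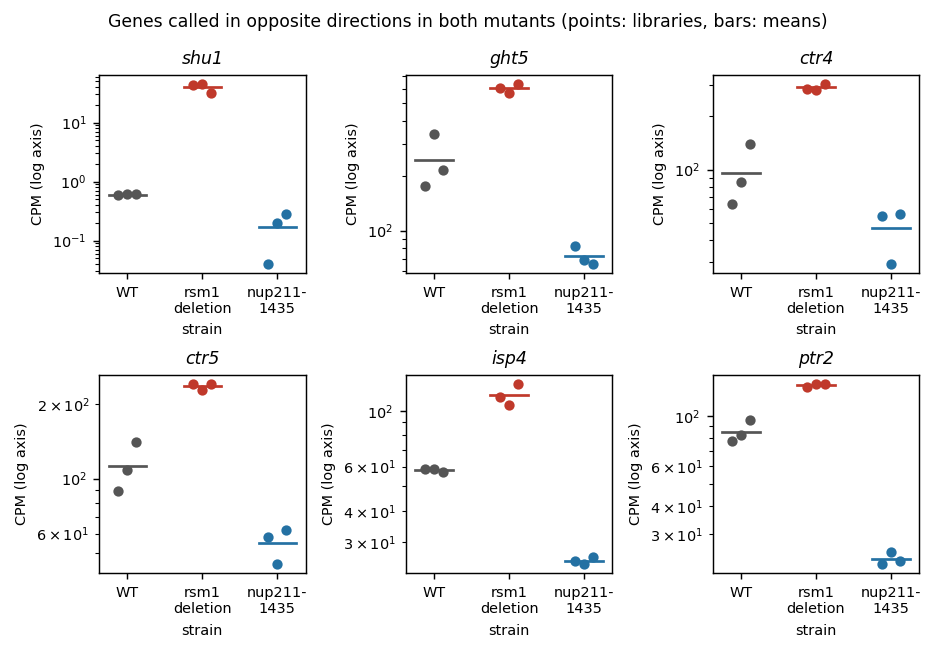
CPM on a logarithmic axis of 6 protein-coding genes called in opposite directions in the mutants, with a point per library and a bar at the mean of each strain. In each panel the rsm1-labelled libraries lie above all WT libraries and the nup211-1435 libraries below them.

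Rises outnumbered falls by 9 to 4 among 16 copper and zinc genes, whose median was 0.20 against 0.01 for all features. These were 56.2% and 25% of the list, where 36.7% and 34.1% of all features rose and fell. The metallothionein gene zym1, whose product binds zinc, rose from 14.1, 12.4 and 17.2 to 37.6, 37.4 and 34.8 CPM (log2 1.32, SE 0.11, adjusted p = 4.01e-07), and loz1, the repressor of zinc uptake genes, rose by 1.07 (SE 0.05). The alcohol dehydrogenase gene adh4 fell by 1.11 (SE 0.04), with -1.16 in nup211-1435. The copper-dependent factor gene cuf2 fell by 1.28 (SE 0.50) at under 1 CPM on average in each strain. Against nup211-1435, 9 of the 16 were higher and 1 was lower.

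Iron uptake genes rose as a group. Of 14 listed genes 12 rose and 1 fell, with a median of 0.99, while 7 rose and 3 fell in nup211-1435 with a median of 0.47, and in the direct comparison 10 were higher and 2 lower in the rsm1-labelled libraries. The reductive pathway comprises the surface reductase Frp1, the ferroxidase Fio1 and the permease Fip1. The reductase gene frp1 had 6.92, 12.4 and 14.2 CPM in WT, 70.7, 71.2 and 50.3 in the rsm1-labelled libraries and 17.9, 16.1 and 18.7 in nup211-1435. Its rise of 2.51 (SE 0.24, adjusted p = 4.81e-05) stood beside 0.64 (adjusted p = 0.0728) in nup211-1435, and the mutants differed by 1.87 (SE 0.22, adjusted p = 3.90e-04). The genes fio1 and fip1 differed less between the mutants, by 0.82 (SE 0.15) and 0.90 (SE 0.15).

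Heme and siderophore uptake showed the largest changes of the comparison. The heme-binding surface protein gene shu1 had 14, 15 and 16 reads in WT, 1156, 1166 and 671 in the rsm1-labelled libraries and 1, 5 and 8 in nup211-1435. The neighbouring gene str3 in the reference annotation, a siderophore-iron transporter that also takes part in heme uptake, had 7, 15 and 47, then 1663, 1637 and 776, then 68, 64 and 101 reads. Reads of shu1 were few outside the rsm1-labelled libraries, as were those of str3 in WT, and replicate 3 of the rsm1-labelled libraries was the lowest of its group for both. The fall of shu1 in nup211-1435 lost its call in 6 of 15 other settings, while the mutants differed by 7.36 to 8.35 (log2) over the 15. WT replicate 3 was high for str3, whose rise of 5.88 (SE 0.45) became 6.89 without that library.

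The related transporter gene str1 had 21, 19.2 and 45.3 CPM in WT, 404, 414 and 327 in the rsm1-labelled libraries and 168, 179 and 174 in nup211-1435. Its rise of 3.73 became 4.25 without WT replicate 3, and the mutants differed by 1.14 (SE 0.27, adjusted p = 0.0127). The gene sib1, for the enzyme that makes the siderophore ferrichrome, rose by 0.36 (SE 0.04) but by 1.64 in nup211-1435, so that the rsm1-labelled libraries were lower in the direct comparison (-1.28, SE 0.04). The vacuolar transporter gene abc3 rose from 44.9, 46.9 and 51.2 to 94.5, 95.5 and 81.2 CPM, with 45.5, 54 and 50.9 in nup211-1435, where it was not called. The iron-responsive repressor gene php4 rose by 1.06 (SE 0.06). Of 18 listed targets that Php4 represses, genes of iron-using proteins, 13 fell and 3 rose in the rsm1-labelled libraries, with a median of -0.18 beside -0.32 in nup211-1435. The largest change was a rise, of the iron-sulfur cluster assembly gene isu1 (1.29 beside 0.86, the log2 change in nup211-1435, which is given second here and in later pairs). The heme synthesis gene hem14 (-0.64 beside -0.31), the lysine synthesis gene lys2 (-0.61 beside -0.64) and the cytochrome c gene cyc1 (-0.57 beside -0.33) fell.

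The chromosomal neighbours of shu1 and str3 were examined because 4 of the 36 features lie among them, a window chosen after their values were seen. Of 11 successive protein-coding features on chromosome I, 10 could be tested, of which 8 rose and 1 fell in the rsm1-labelled libraries. In gene order, dak2 changed by 1.48, SPAC977.17 by 0.31, SPAPJ695.02 by 1.86, the gluconate transporter gene ght3 by 1.02, shu1 by 6.05, str3 by 5.88, hhy1 by 2.14, isp3 by -0.08, pfl8 by 1.23 and the pyruvate decarboxylase gene pdc101 by -0.10. In nup211-1435 the same genes changed by -0.19, 0.20, -0.41, -0.18, -1.74, 1.67, -0.08, -0.89, 0.44 and -0.49. The rises were not unbroken, as isp3 was not called between hhy1 and pfl8.

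**Figure D4:**
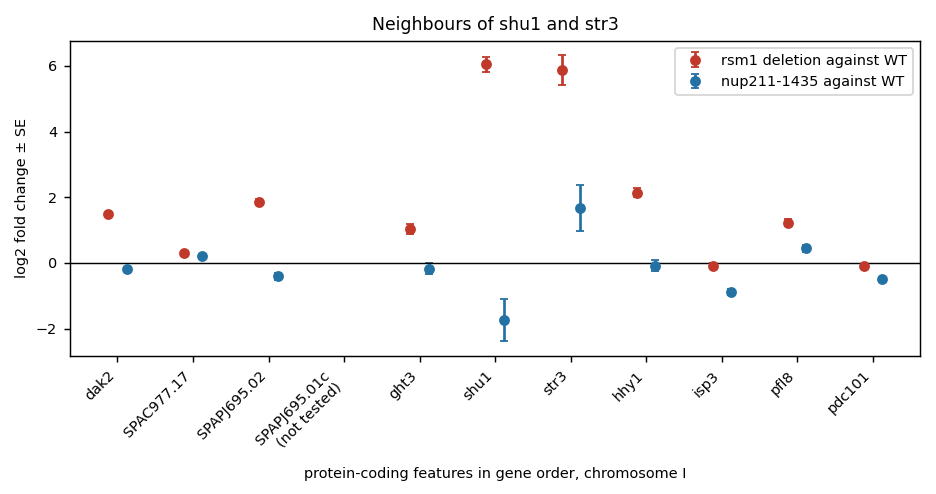
Log2 fold change against WT with its SE for successive protein-coding features around shu1 and str3 on chromosome I, in the rsm1-labelled libraries (red) and nup211-1435 (blue). Rises in red of 1.02 to 6.05 run from SPAPJ695.02 to hhy1, apart from SPAPJ695.01c, which had too few reads to be tested. The rises of dak2 and pfl8 stand apart from this run, and SPAC977.17, isp3 and pdc101 lie at 0.31 or nearer to 0.

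Hexose transporters of the ght family carry glucose, fructose and gluconate into the cell. Of 8 members 6 rose and 1 fell in the rsm1-labelled libraries, none rose and 2 fell in nup211-1435, and 7 were higher in the direct comparison, where 25.7% of all features were. The medians were 0.63 and -0.13. Among those with many reads, ght8 went from 1162, 1362 and 1189.9 to 1622, 1618 and 1724 CPM (log2 0.42, SE 0.06, adjusted p = 1.21e-04) and ght2 from 170.2, 195 and 163 to 280.1, 287 and 284 CPM (0.69, SE 0.05, adjusted p = 1.18e-07). Neither gene was called in nup211-1435, at -0.08 and -0.01, and the differences between the mutants were 0.50 and 0.70. The gene ght3 rose from 4.52, 3.66 and 5.37 to 10.9, 8.93 and 7.65 CPM. The rise of ght6, from 15, 16 and 12 reads to 40, 36 and 25, and the fall of ght7 (log2 -0.74, adjusted p = 0.042) rest on low counts, and the fall of ght7 lost its call in 9 other settings, among them total-count scaling and DESeq2.

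**Figure D5:**
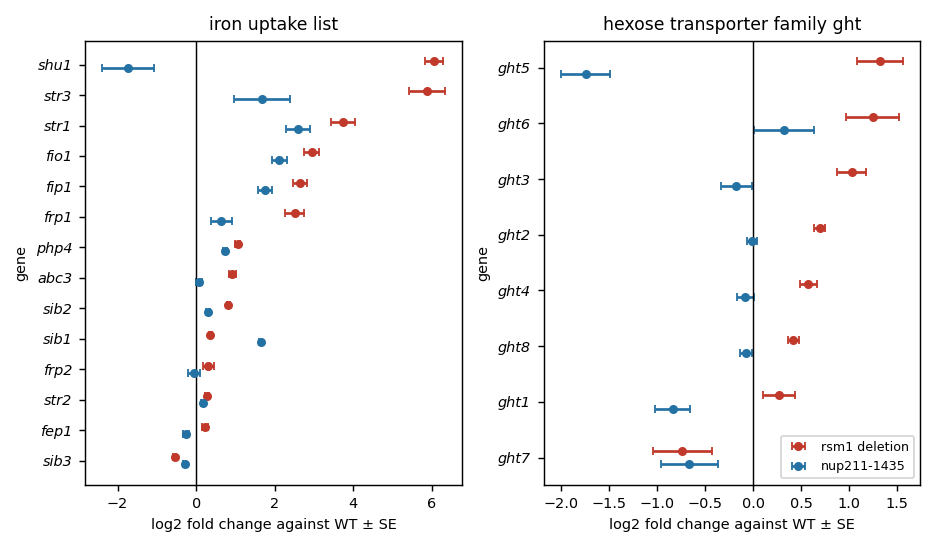
Log2 fold change against WT with its SE for the 14 iron uptake genes (left) and the 8 hexose transporter genes (right), in the rsm1-labelled libraries (red) and nup211-1435 (blue). On the left shu1, str3 and frp1 show wide gaps between the colours and sib1 is the gene with blue far above red, and on the right ght5 lies on opposite sides of 0.

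Glucose-repressed genes and the cAMP pathway that senses glucose also differed between the mutants. Of 28 listed genes 19 rose and 5 fell in the rsm1-labelled libraries (median 0.54), 7 rose and 12 fell in nup211-1435 (median -0.10, or 0.03 with total-count scaling), and 21 were higher and 2 lower in the direct comparison. The list shares members with the ght family. The glucose receptor gene git3 stood at 66.1, 67.1 and 65.6 CPM in WT, 126, 131 and 121 in the rsm1-labelled libraries and 63.5, 63.9 and 65.8 in nup211-1435. It rose by 0.92 (SE 0.04, adjusted p = 2.30e-11), and the mutants differed by 0.96 (SE 0.04, adjusted p = 4.06e-11). The gene gpa2, for the G protein alpha subunit downstream of the receptor, rose by 1.21 beside 0.62.

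The glucose repressor gene scr1 had 32.6, 34.5 and 39.6 CPM in WT, 60.9, 59.5 and 76.7 in the rsm1-labelled libraries and 34.1, 38.9 and 33.9 in nup211-1435 (log2 0.88, SE 0.11, adjusted p = 5.44e-05). The activator gene rst2, which acts against Scr1 at glucose-repressed genes, rose by 0.47 (SE 0.04) and stood at -0.12 in nup211-1435. The maltase gene agl1 rose by 1.19 beside 0.57. The 2 members called lower in the rsm1-labelled libraries than in nup211-1435 were the melibiase gene mel1 (1.44 beside 3.27) and the gluconeogenic gene fbp1 (1.03 beside 1.42). The values of mel1 rest on few reads, at 0.34, 0.52 and 0.34 CPM in WT and 1.09, 1.26 and 0.93 in the rsm1-labelled libraries.

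Listed core stress genes were mostly raised. The list holds genes that the MAP kinase Sty1 induces under many stresses. It also holds components of the Sty1 pathway itself, among them sty1, wis1, wis4 and win1, so its counts do not measure the induced genes alone. Of 30 members 24 rose and 2 fell in the rsm1-labelled libraries (median 0.44), 14 rose and 6 fell in nup211-1435 (median 0.15), and 25 were higher and none lower in the direct comparison. Besides hsp9, hsp16 and rds1, the nuclear envelope gene ish1 rose from 33.8, 37.4 and 35.3 to 111, 106 and 96.3 CPM (log2 1.56, SE 0.05), with 1.20 in nup211-1435. The transcription factor gene atf1, which acts downstream of Sty1, rose by 1.04 (SE 0.04) beside 0.55, and the phosphatase gene pyp2, which inactivates Sty1, by 1.16 beside 0.90.

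Genes listed under the factor Pap1 and oxidative stress were mostly higher in nup211-1435 than in the rsm1-labelled libraries. The list also holds another factor gene, prr1, and general enzymes such as sod1 and zwf1, so its counts do not measure Pap1 targets alone. The gene pap1 itself had the other order, rising by 0.80 beside 0.35, and the mutants differed by 0.44 (SE 0.03). Of 26 listed genes 15 rose and 6 fell in the rsm1-labelled libraries and 18 rose and 2 fell in nup211-1435, while 4 were higher and 15 lower in the direct comparison. The gene gst2, which encodes a glutathione S-transferase, went from 132, 136 and 146 CPM in WT to 1234, 1184 and 1076, below the 2367, 2250.4 and 2267 of nup211-1435. The dehydrogenase gene osr1 rose from 13.1, 14.5 and 15.5 to 113, 100 and 81.2 CPM, with 279, 286 and 267 in nup211-1435. The sulfiredoxin gene srx1, whose product repairs oxidised peroxiredoxin, was higher in the rsm1-labelled libraries, rising by 2.98 (SE 0.17) beside 2.57, with a difference of 0.41 (adjusted p = 0.0221). The membrane transporter gene caf5 changed by 2.31 beside 2.64, and features on the opposite strand overlap 42.1% of it. Of 28 genes listed as chaperones 8 rose (28.6%) and 17 fell (60.7%), where 36.7% and 34.1% of all features did. The list also holds the heat shock factor gene hsf1 and ssb1, annotated as a DNA replication factor subunit. The rises were led by hsp16, the disaggregase gene hsp104 (1.07, SE 0.07) and the Hsp70 gene ssa1 (0.99, SE 0.08). The mitochondrial chaperone gene hsp78 rose by 0.65 beside 0.49, and hsf1 rose by 0.55 (SE 0.04). The chaperonin genes cct1 to cct8 all fell, from -0.22 beside 0.03 for cct6 to -0.43 beside -0.23 for cct7. The abundant genes ssa2 (-0.35 beside -0.14) and hsp90 (-0.31 beside -0.04) fell as well.

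Mating and meiosis regulators were mostly higher in the rsm1-labelled libraries than in nup211-1435. Of 34 members 20 rose and 7 fell in the rsm1-labelled libraries (median 0.44), 10 rose and 17 fell in nup211-1435 (median -0.12, or 0.01 with total-count scaling), and 23 were higher and none lower in the direct comparison. The gene ste11, the transcription factor that switches on sexual differentiation, stood at 33.6, 41.7 and 33.4 CPM in WT, 57.3, 61.2 and 64 in the rsm1-labelled libraries and 38, 35.7 and 32.4 in nup211-1435. It rose by 0.75 (SE 0.08, adjusted p = 7.65e-06), and the mutants differed by 0.78 (SE 0.08). Negative regulators rose beside it, pat1 as described and the RNA-binding protein gene nrd1 from 25, 22 and 27.5 to 59.8, 62.9 and 64.3 CPM (log2 1.33, SE 0.08).

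Not all members followed. The pheromone precursor gene mfm2 fell from 47.1, 51.4 and 36.8 to 16.9, 19 and 17.4 CPM (log2 -1.34, SE 0.11) and further, to 9.87, 9.38 and 9.15, in nup211-1435. The related gene mfm1 changed by -1.34 beside -1.57, at under 1 CPM on average in each strain. The agglutinin gene map4 of h+ cells rose from 21.7, 21.3 and 22.3 to 39.3, 38.5 and 43.5 CPM, with 20.4, 21.9 and 21.6 in nup211-1435. The meiotic inducer gene mei3 rose by 2.06 (SE 0.29) beside 1.81, at 2 CPM or less in every library. The meiotic transcription factor gene mei4 rose by 1.20 beside 1.11, with no call between the mutants (adjusted p = 0.609).

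Autophagy and vacuole genes rose almost throughout. Of 38 members 33 rose and 3 fell (median 0.31), beside 23 and 4 in nup211-1435 (median 0.16), and 22 were higher and 1 lower in the direct comparison. The gene atg13, a regulator of the autophagy kinase, rose from 48.2, 49.7 and 46.7 to 90.9, 90.5 and 88.5 CPM (log2 0.90, SE 0.04, adjusted p = 1.34e-10), and atg1, the kinase gene itself, by 0.77 (SE 0.06). The vacuolar protease gene isp6 went from 72.2, 81.8 and 78.9 to 148, 144 and 149.9 CPM, with 97.9, 107 and 105 in nup211-1435, and the vacuolar amino acid transporter gene avt5 from 29.7, 31.4 and 30.7 to 56.2, 57.6 and 55.5, with 38, 34.7 and 33.4. The sorting nexin gene atg20 rose by 0.96 beside 0.76. Of 34 TOR signalling genes 23 rose (67.6%) and 7 fell (20.6%), by at most 0.67, where 36.7% and 34.1% of all features did. The largest rise was that of maf1, a repressor of RNA polymerase III (0.67, SE 0.06), and the largest fall that of tip41 (-0.60, SE 0.06), a phosphatase regulator. The SEA complex gene sea3 rose by 0.63 beside 0.61 and gad8, a kinase downstream of TOR complex 2, by 0.58 beside 0.41.

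Nitrogen and amino acid transport genes were divided. Of 29 members 15 rose (51.7%) and 10 fell (34.5%), with a median of 0.22, where 36.7% and 34.1% of all features did. In nup211-1435 10 rose (34.5%) and 13 fell (44.8%), with a median of -0.12, where 32.9% and 32% of all features did. Besides isp4, the gene isp7, an oxygenase family member that regulates amino acid uptake, rose from 44.6, 39.6 and 45.5 to 129, 122 and 129 CPM (log2 1.55, SE 0.05), with 68.3, 68.5 and 71.5 in nup211-1435. Proline use moved the other way, as the dehydrogenase gene put2 fell from 1684, 1664 and 1729 to 715, 709 and 732 CPM and the proline transporter gene put4 from 46.4, 42.6 and 43.2 to 21.4, 19 and 26.3. Both also fell in nup211-1435 (-1.05 and -0.61). The amino acid permease gene meu22 rose by 1.01 beside 0.64, with an opposite-strand feature over most of it.

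Cell cycle control genes showed their largest change at wee1, the kinase that delays mitosis. It went from 88.3, 87.5 and 90.1 CPM in WT to 249, 250.3 and 237 in the rsm1-labelled libraries and 137, 143 and 160.2 in nup211-1435, with no overlap between groups. The rise was 1.47 (SE 0.05, adjusted p = 1.46e-11), and the mutants differed by 0.74 (SE 0.05, adjusted p = 4.38e-08). Genes that restrain Wee1 rose too, cdr1 from 86.9, 84.5 and 85.7 to 158, 167 and 164 CPM and cdr2 by 0.39, as did pom1, the polarity kinase that inhibits Cdr2 (0.70 beside 0.24). The phosphatase gene cdc25, which opposes Wee1, rose by 0.47 (SE 0.04) beside 0.14, and the forkhead factor gene sep1 by 0.60 beside 0.25. In all, 16 of 24 listed cell cycle genes rose and 3 fell, and 14 were higher and 1 lower in the direct comparison.

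Signalling and regulatory classes leaned upward. Of 93 genes annotated with a protein kinase 62 rose and 13 fell, of 117 transcription factor genes 72 rose and 19 fell, and of 74 ubiquitin ligase genes 49 rose and 11 fell, beside 36.7% up and 34.1% down over all features. Transcription factor genes were higher in 55 and lower in 10 cases against nup211-1435. The factor gene cbf12, a regulator of adhesion, rose from 39.4, 44.7 and 38.4 to 193, 185 and 181 CPM, with 89.9, 98.5 and 108 in nup211-1435. The largest change of a factor gene was the fall of grt1, from 10.7, 12.6 and 13.3 to 1.01, 1.06 and 1.21 CPM, with 0.955, 0.934 and 1.17 in nup211-1435. The genes atf31 and atf21 rose by 2.01 beside 1.79 and 1.55 beside 0.39, and opposite-strand features overlap most of these last 3 genes. Of 15 adhesion genes 11 rose and 2 fell, the falls being the glycoprotein genes pfl7 (-1.93) and pfl9 (-1.84), beside -3.25 and -0.60. The ubiquitin ligase gene pep3 rose by 0.96 beside 0.32, and the ligase genes rkr1, SPBC14F5.10c and hul5 by 0.97 beside 0.81, 0.80 beside 0.74 and 0.79 beside 0.57. The kinase gene pit1 rose by 1.28 beside 0.57. The kinase inhibitor gene nif1 rose by 1.5 beside 1.42, and cgs1, for the regulatory subunit of the cAMP-dependent kinase, by 1.22 beside 1.33.

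Genes for respiration, other than those of complex II, mostly stood lower in the rsm1-labelled libraries than in nup211-1435. Of 53 genes of the respiratory chain and the ATP synthase, assembly factors included, 45 fell and 1 rose (median -0.36), 25 fell and 1 rose in nup211-1435 (median -0.13), and 34 were lower and 8 higher in the direct comparison. With total-count scaling 33 fell and 4 rose (median -0.22), while the nup211-1435 median was 0.01. All 8 genes of complex III, which passes electrons to cytochrome c, fell (median -0.51), 3 of them in nup211-1435 as well, and all 8 were lower in the direct comparison. Of 18 genes of complex IV 15 fell (median -0.36) and of 18 of the ATP synthase 15 fell and 1 rose (median -0.38). Complex II, succinate dehydrogenase, had the other order, as 5 of 6 genes fell (median -0.15) beside 4 in nup211-1435 (median -0.36), and 4 were higher and 1 lower in the direct comparison. The complex III core subunit gene qcr2 went from 236, 232 and 235 CPM in WT to 149, 149.8 and 167, with 198, 202 and 199.8 in nup211-1435, and atp7 of the ATP synthase went from 131, 126 and 128 to 70.6, 73 and 79.6, with 102, 102 and 97.7. The changes were -0.60 (SE 0.04, adjusted p = 3.89e-09) and -0.79 (SE 0.04, adjusted p = 4.40e-10). The complex IV subunit gene cox9 changed by -0.63 beside -0.14 and the ATP synthase gene atp20 by -0.62 beside -0.16.

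The lists of the tricarboxylic acid cycle and of mitochondrial ribosomal proteins were divided. Of 25 genes listed under the tricarboxylic acid cycle and related enzymes 21 fell and 2 rose (median -0.19), but the nup211-1435 median was lower (-0.44). In the direct comparison 15 were higher and 2 lower in the rsm1-labelled libraries. This list includes the 6 complex II genes described above, which gave 4 of the 15 and 1 of the 2. It also holds the ATP citrate synthase genes acl1 and acl2 and genes of lysine and leucine synthesis. The isocitrate dehydrogenase gene idp1 fell by 0.67 beside -0.42, and leu1 and lys12, whose products act in leucine and lysine synthesis, by 0.74 and 0.77 beside -0.97 and -1.15. The succinate-CoA ligase gene SPAC16E8.17c changed by -0.65 beside -0.56. Of 75 mitochondrial ribosomal protein genes 47 fell and 10 rose (median -0.14), 36 fell and 6 rose in nup211-1435 (median -0.09), and 24 were lower and 10 higher in the direct comparison. The gene mrpl31 went from 52, 50.1 and 53.9 to 31.4, 31.1 and 32.7 CPM, mrpl15 changed by -0.73 beside -0.42 and mrpl23 by -0.53 beside -0.29, while mrpl27 rose by 0.65 beside 0.24.

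Translation and biosynthesis genes fell in both mutants. Of 131 cytosolic ribosomal protein genes 129 fell and none rose (median -0.42), beside 124 and none in nup211-1435. The pattern was led by rps2202 (-1.72) and rps1401 (-1.18), and near-identical paralogs make single values uncertain. The genes rps001 and rpl801 changed by -0.65 beside -0.67 and -0.65 beside -0.65. Of 56 translation factor genes 50 fell and 1 rose (39 and 2 with total-count scaling), and 39 were lower and 2 higher than in nup211-1435. The initiation factor eIF2 gamma subunit gene tif213 went from 693, 711 and 703 to 434, 437 and 467 CPM, with 489, 489.8 and 488 in nup211-1435. Larger falls were those of the release factor gene pth4 (-1.08 beside -0.85) and of tif1102, annotated as similar to eIF1A (-1.04 beside -0.74), and the elongation factor gene SPAC29A4.02c changed by -0.61 beside -0.41. Of 41 tRNA ligase genes 32 fell and 3 rose, with the asparagine enzyme genes on both sides, nrs1 at -0.81 and slm5 at 0.83. The valine enzyme gene vrs1 changed by -0.72 beside -0.50 and the glycine enzyme gene grs1 by -0.71 beside -0.55.

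Amino acid and nucleotide synthesis gave similar counts. Of 16 arginine and lysine genes 13 fell and 1 rose, of 25 other amino acid genes 20 fell, and of 17 purine and pyrimidine genes 15 fell, with none rising in the last 2 lists. The valine and isoleucine gene ilv5 went from 3218, 3256 and 3303 to 1942, 1957 and 2002 CPM (log2 -0.73, SE 0.03) and the purine gene ade10 from 792, 786 and 792 to 459.7, 445 and 485 (-0.77, SE 0.03). Arginine and lysine genes fell less than in nup211-1435, where 12 of the 16 were lower in the direct comparison, such as arg12 (-0.71 beside -1.10) and arg3 (-0.71 beside -0.99), while lys1 was not called between the mutants (-0.62 beside -0.61, adjusted p = 0.781). Of the other listed genes ilv3 changed by -0.74 beside -0.81, pro3 by -0.69 beside -0.60, ade8 by -0.52 beside -0.18, gua2 by -0.50 beside -0.35 and ura5 by -0.47 beside -0.30.

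Genes of the pore and of RNA processing changed by small amounts. Of 32 nuclear pore genes 17 rose and 9 fell, and with total-count scaling 21 rose and none fell. In the direct comparison 5 were higher and 16 lower in the rsm1-labelled libraries. The basket gene alm1 rose from 214, 222 and 229 to 326, 319 and 279 CPM (log2 0.47, SE 0.05), with 350.2, 338 and 331 in nup211-1435. The nuclear membrane gene tts1 rose by 0.52 beside 0.70 and nup189, which encodes Nup98 and Nup96, by 0.42 beside 0.62. The 36 mRNA export genes split into 12 rises (33.3%) and 11 falls (30.6%), near the shares over all features. The export receptor gene mex67 stood at 0.44 (SE 0.06) and nxt2 at -0.62 (SE 0.05). The Ran-binding protein gene hba1 rose by 0.67 beside 0.44, and tho4 changed by -0.48 beside -0.02. Of 37 genes for 3′-processing and termination 15 rose (40.5%) and 9 fell (24.3%), where 36.7% and 34.1% of all features did. The share of rises was thus near that over all features, and in nup211-1435 15 rose (40.5%) and 13 fell (35.1%). The largest changes were those of lsg1 (-0.67), a subunit of the Lsk1 kinase complex, and the cleavage factor gene mpe1 (0.56). The genes din1 and dbl8 changed by -0.44 beside -0.40 and -0.39 beside -0.22.

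Ribosome assembly and the polymerases that serve it separated the mutants. Of 93 assembly genes 26 rose and 29 fell (median -0.03, or 0.11 with total-count scaling), 40 rose and 16 fell in nup211-1435 (median 0.12), and 2 were higher and 44 lower in the direct comparison. The processome gene cms1 went from 101, 93.8 and 108 to 65.7, 66.2 and 67.9 CPM, with 93.8, 94.3 and 91.2 in nup211-1435. The largest changes in the rsm1-labelled libraries were those of utp4 (-1.11 beside -0.84), sqt1 (0.98 beside 0.72) and tsr3 (-0.64 beside -0.40), and opposite-strand features overlap most of utp4 and all of tsr3. Of 18 subunit genes of RNA polymerases I and III 3 rose and 11 fell, and 12 were lower and none higher than in nup211-1435. The shared subunit gene rpc40 fell by 0.45 (SE 0.03) beside -0.05, whereas rpc1, for the largest subunit of polymerase III, rose by 0.76 beside 0.91. The polymerase III genes rpc25 and rpc17 changed by -0.62 beside -0.48 and -0.45 beside -0.28. Of 38 small nucleolar RNAs 15 rose and 6 fell, with snR95 at 23.9, 23.8 and 23.8 CPM in WT and 63.6, 60.6 and 59.7 in the rsm1-labelled libraries, and snr79 rose by 1.45 beside 1.22, snoR69b changed by -1.61 beside -2.12 and snR41 by 1.36 beside 0.97. Poly(A) selection makes levels of such mostly unadenylated RNAs uncertain.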

How the data were processed

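RNA of 3 strains with 3 biological replicates each was poly(A)-selected, prepared with a strand-preserving TruSeq kit and read as pairs on a NovaSeq X Plus, per the labels' protocols. The authors deposited raw read counts per feature, not normalized. HISAT2 2.1.0, SAMtools, HTSeq 0.10.0, DESeq2 and build ASM294v2 were used per the submitters' processing notes. For the strand setting and annotation nothing is given in the sources used here, which leaves the counts of overlapping features uncertain. Opposite-strand overlaps are not given above for every named feature, for example fbp1 (100%), SPNCRNA.716 (97.8%), put4 (82.1%) and abc3 (56.1%). The authors also deposited log2 fold changes and adjusted p-values for the deletion against WT, and 41 of 300 features with 0 counts in all 9 libraries carry a p-value there, so that table may rest on other counts.

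The analysis ran in edgeR 4.0.16 under R 4.3.3. Features kept by filterByExpr (minimum count 10, minimum total 15) were scaled by TMM and fitted in 1 robust quasi-likelihood model over the 9 libraries with no covariate. Two-sided tests compared each pair of groups, with Benjamini-Hochberg adjustment. DESeq2 1.42.0 served as an alternative. On simulated counts for 6199 genes in the deletion comparison, 82% of genes changed 1.5-fold and 97% of genes changed 2-fold were recovered, and 5.82% of calls were false. Only 100 and 99 genes were changed there, in both directions, whereas 70.7% of features were called in the data. The simulated share of false calls therefore does not carry over to the real calls, and it does not cover the choice of scaling. No replicates agreed within sampling noise (chi-square per degree of freedom 2.80 to 11.9). Names, exon lengths, overlaps and gene order came from RefSeq assembly ASM294v3, matched by identifier for 6836 features and by synonym for 12, with 140 unmatched. It is another build than that of the files, so no coordinates are given.

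The members and gene lists were chosen with earlier results of these data known. The features named are those of the 36-feature set with the largest changes, the 4 called members of each list described by its counts that changed most, list members of that set, features called in opposite directions, the features at the bound, and pathway partners or defining genes by role. A few of the last were chosen after their values were seen. The alternatives were other scalings (DESeq2 size factors, total counts), no filter, DESeq2, only 6 libraries, a replicate block, features without overlaps, each library left out, and other bounds of the 36-feature set.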

Additional observations from a re-analysis of the deposited data

Results flagged for a closer look

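The following results come from the 17 features called in opposite directions against WT with at least 1.5-fold change in each mutant. They are those whose mean reached 10 CPM in at least 1 strain. For each the direct comparison of both mutants was also called by edgeR's quasi-likelihood test. The differences, rsm1-labelled libraries minus nup211-1435, were 7.79 for shu1, 3.07 for ght5, 2.64 for ctr4, 2.56 for ptr2, 2.19 for isp4, 2.18 for SPNCRNA.716, 2.11 for SPNCRNA.322 and 2.1 for ctr5. The genes shu1, ght5, ctr4, ptr2, isp4 and ctr5 encode surface proteins that take up heme, hexoses, peptides or copper. The direct comparison was called in every setting for all 8, and the fall in nup211-1435 was lost in 6 of 15 settings for shu1 and in 9 of 15 for ctr4.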

How the results depend on the processing

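With total-count scaling 1394 features were called down, 2 fallen features were in the weak set, 10 features were called in opposite directions, and rsm1 stood at -0.0629 (adjusted p = 0.251). That scaling kept 24 of the 36 weak-set members. Over the 2345 tested features that overlap no other, 1706 were called, 903 up and 803 down, with 117 rises and 64 falls of at least 2-fold. There 1553 were called in nup211-1435 and 1192 between the mutants, 15 risen features were in the weak set and 8 features went in opposite directions, and fewer features were tested. With a bound of 0.3 on the nup211-1435 change the weak set held 17 rises and 1 fall, with 0.75 it held 65 and 16, and a minimum of 1 CPM gave 13 falls.

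Leaving out 1 library at a time gave 9 to 17 features in opposite directions, with 9 without WT replicate 3. It also gave 4095 to 4446 called features, 29 to 33 rises and 6 to 8 falls in the weak set, and -0.24 to -0.19 for rsm1. Same-numbered replicates did not deviate together, with correlations of their deviations from -0.06 to 0.12 over 9 pairs, so the numbers were not taken as pairs. With a replicate block the weak set held the same 36 features, and the call of ght7 was lost (adjusted p = 0.0539). No called result changed direction in any setting. Among single genes and list values 6276 results under an alternative kept their direction and call, or a count or median close to that reported, while 247 moved and 35 lost a call. Most of those that moved did so with total-count scaling or over the features that overlap no other. The medians of 10 lists near 0, ribosome assembly among them, changed sign with total-count scaling. Depth limits what can be said of genes such as ght6, ght7 and mei3, and of shu1 outside the rsm1-labelled libraries.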
